A study of Mus musculus with 3 samples.

Results

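The mitochondrial percentage of a spot is the share of its captured transcripts that fall on mitochondrial genes. It was deposited for every retained spot of the series, so the values described here cover 8549 of 8549 spots in 17 areas and 11 brain regions, and no spot was chosen by its value. The position lists mark 911 (CON), 1033 (RES) and 950 (SUS) further places as covered by tissue that have no row in the spot table. The spots came from 3 coronal sections of the left brain, 10 μm thick, 1 from a control (CON), 1 from a resilient (RES) and 1 from a susceptible (SUS) animal, all male C57BL/6J mice of 8 weeks. The RES and SUS animals were exposed to CD-1 aggressors for 10 days (chronic social defeat stress, CSDS) and were told apart by a social interaction ratio above or below 1. The CON mouse met a non-aggressive C57BL/6 mouse each day and was otherwise kept in the same way, and tissue was taken 1.5 h after the last exposure. Transcripts were captured on Visium slides, whose spots lie on a hexagonal grid and each take up the mRNA of a small piece of tissue that can hold several cells or parts of cells. Molecules were counted by their unique molecular identifiers (UMIs), so that copies of a molecule count once. The CON section holds 2881 spots, the RES section 2828 and the SUS section 2840, and values named for CON, RES and SUS below are those of these sections. Because each condition has 1 section, the values compare these sections and not the conditions, no p-value was calculated, and animal, section and condition cannot be told apart. Counts per gene were not analysed here, so the area labels were not checked against marker genes.

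Mitochondria carry a small genome of their own. In the mouse annotation (GENCODE vM21 on GRCm38) it is 16299 bases long and holds 37 genes, of which 2 encode ribosomal RNAs, 22 transfer RNAs and 13 proteins. All 13 proteins are parts of the machinery of oxidative phosphorylation, 7 of complex I (the mt-Nd genes), 1 of complex III (mt-Cytb), 3 of complex IV (mt-Co1, mt-Co2 and mt-Co3) and 2 of the ATP synthase (mt-Atp6 and mt-Atp8). Their messenger RNAs are made and translated inside the organelle and mostly carry poly(A) tails, so they are captured along with nuclear messengers. Neurons spend much of their ATP on restoring ion gradients, and mitochondria are found in their dendrites and axon terminals as well as in the cell body. In spot data the percentage depends on mitochondrial transcripts and on all other transcripts alike, and it is also widely read as a sign of tissue quality. Which of these genes the authors counted is not given in the sources used here.

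The mitochondrial percentage was highest in CON and lowest in SUS. The median spot held 10.5% mitochondrial UMIs in CON (95% order-statistic interval 10.3 to 10.6%, n = 2881 spots), 9.64% in RES (9.51 to 9.79%, n = 2828) and 8.03% in SUS (7.88 to 8.19%, n = 2840). The intervals of the 3 medians do not overlap, and they cover the spread over spots within a section only. They also treat spots as independent, although adjacent spots had similar values, so they are likely too narrow even within a section. The spots themselves overlapped widely, since the middle 50% of spots lay from 8.39 to 12.8% (CON), from 7.98 to 11.8% (RES) and from 6.21 to 10.7% (SUS). The full range ran from 2.09 to 27.4% in CON, from 2.65 to 38.5% in RES and from 2.62 to 42.0% in SUS. Counting error is small beside this spread. For the median spot its SD was 0.257 (CON), 0.279 (RES) and 0.248 (SUS) percentage points, and it accounts for between 0.450 and 1.03% of the variance over spots of a section.

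The number of mitochondrial UMIs behind each percentage could be worked out, because the percentages were deposited at full precision. The deposited total of a spot leaves the mitochondrial UMIs out, and the percentage rests on a larger total that includes them. The median number of mitochondrial UMIs per spot was 1560 (CON), 1218.5 (RES) and 1080 (SUS), and the median deposited total was 12912, 10054.5 and 10947.5 UMIs. The RES section's median of mitochondrial UMIs was therefore 0.781 times that of the CON section, and its median of deposited UMIs 0.779 times. For the SUS section these ratios were 0.692 and 0.848. Such ratios of medians do not give the change in the share. With UMIs pooled over spots, the mitochondrial share was 9.77% (RES) and 8.55% (SUS) against 10.4% (CON). The pooled share of RES was thus also below that of CON, although its ratios of medians were nearly equal. In the maps of the sections the values form continuous structures, with a high thalamus, dark curved bands in the hippocampus, around a bright core in CON and RES, and a bright rim along the outer surface of the brain.

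**Figure D1:**
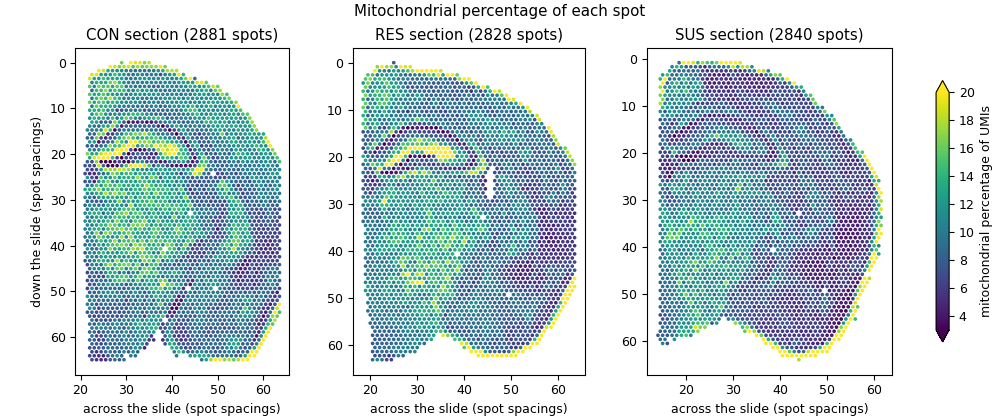
Mitochondrial percentage of every spot at its place on the slide in the CON (2881 spots), RES (2828) and SUS (2840) sections, with both axes in spot spacings and 1 color scale for all sections, whose ends also take the values beyond them. The section medians are 10.5, 9.64 and 8.03%, and high values trace much of the outer edge of the tissue in each section and the core of the hippocampus in CON and RES.

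Retrosplenial cortex (RSP), which takes part in spatial memory, and thalamus (TH), the relay between sense organs, subcortical centers and cortex, stood at the top of the order of areas in every section. In RSP the median was 13.2% in CON (12.6 to 13.6%, 120 spots), 12.4% in RES (11.6 to 12.7%, 125 spots) and 10.7% in SUS (9.99 to 11.5%, 111 spots). In TH, the area with the most spots, it was 12.9% (12.6 to 13.1%, 617 spots), 11.8% (11.5 to 12.0%, 561 spots) and 10.7% (10.5 to 10.8%, 532 spots). RSP and TH held ranks 1 to 3 of 17 in all sections, and their intervals overlapped in each of them. Primary somatosensory cortex (SSp), which receives touch from the body surface, held rank 3 in CON at 11.7% (11.4 to 12.0%, 215 spots) but rank 6 in RES at 9.50% (9.30 to 9.83%, 229 spots) and rank 9 in SUS at 7.24% (6.97 to 7.50%, 219 spots).

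At the other end, the temporal association, entorhinal and perirhinal area (TEP) had the lowest median in CON, 6.74% (6.46 to 6.85%, 85 spots), and in RES, 5.60% (5.40 to 5.68%, 81 spots). It was next to lowest in SUS at 5.29% (5.01 to 5.69%, 114 spots), where the entorhinal area (ENTl), the main gateway between cortex and hippocampus, was lowest at 5.15% (4.73 to 6.22%, 30 spots). ENTl was next to lowest in RES at 6.72% (5.83 to 7.44%, 31 spots) and held rank 12 in CON at 8.63% (7.94 to 9.11%, 16 spots). The isocortex therefore held areas from both ends of the order. The small areas labelled LV (9 to 14 spots) and D3V (6 to 9 spots) were also low in CON (ranks 16 and 15) and RES (ranks 15 and 14). In SUS they held ranks 11 and 12. LV lay at 7.67% (CON, 6.81 to 9.10%), 6.93% (RES, 4.68 to 8.56%) and 6.49% (SUS, 6.08 to 7.45%). D3V lay at 8.04% (6.62 to 16.7%), 7.89% (6.86 to 9.09%) and 6.43% (5.55 to 7.35%). The amygdala (AMY), which handles threat and emotion, lay close by at 8.27, 7.96 and 5.82%.

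The areas between these ends were not well separated. Of the 16 pairs of areas that follow each other in the order, 14 had overlapping intervals in CON, 13 in RES and 15 in SUS. The highest area median was 1.96 times the lowest in CON, 2.31 times in RES and 2.16 times in SUS. CA3 held rank 4 in every section, with 11.6, 10.7 and 8.38%, CA1 held ranks 5, 10 and 7 with 10.8, 8.56 and 7.34%, and the cerebral nuclei (CNU), the striatal and pallidal part of the forebrain, held ranks 7, 7 and 8 with 10.3, 9.49 and 7.30%. The fiber tracts (FB), which are mostly myelinated axons and had the fewest UMIs of any area (medians of 3522.5 to 5599), were not at an end of the order, with 8.84, 9.01 and 7.70%. Olfactory areas (OLF) lay at 8.89, 8.14 and 6.13%, and auditory cortex (AUD) at 10.3, 7.94 and 6.68%.

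Several areas changed place between sections. The dentate gyrus (DG), whose granule cells form the entry of the hippocampal circuit, ranked 13 in CON, 1 in RES and 5 in SUS, with medians of 8.46% (6.77 to 12.9%, 69 spots), 12.9% (10.7 to 14.8%, 84 spots) and 7.76% (6.93 to 8.67%, 86 spots). In the CON and RES sections its intervals are the widest among areas with at least 30 spots, and that of CON overlaps with both others. The hypothalamus (HY), which holds the neurons that start the hormonal stress response, ranked 9, 5 and 1. The posterior parietal association area (PTL) moved the other way, through ranks 6, 9 and 15. Over the 17 areas Spearman's rho of the medians was 0.679 between the CON and RES sections, 0.571 between the CON and SUS sections and 0.841 between the RES and SUS sections. These are descriptions, since the areas of a section share its library and depth. By brain region the isocortex as a whole gave 10.9, 8.91 and 6.94% and the hippocampus (HIP) 11.0, 9.95 and 7.65%.

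**Figure D2:**
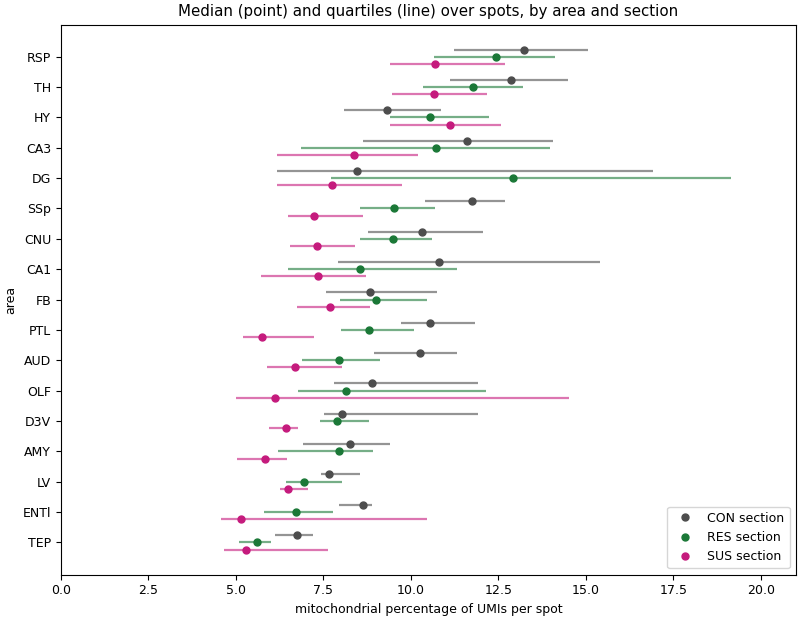
Median (points) and quartiles (lines) of the mitochondrial percentage over the spots of each of 17 areas in the CON, RES and SUS sections, with areas ordered by the mean of their 3 medians. RSP and TH hold ranks 1 to 3 in each section, below DG in RES and below HY in SUS, TEP lies at or near the bottom, HY is the area with the SUS section highest and the CON section lowest, and the quartiles are widest in DG in CON and RES and in OLF in SUS.

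The area label accounted for a modest part of the spread over spots. It took up 22.5% of the variance of the percentage in CON, 18.8% in RES and 17.8% in SUS, a mean of 19.7%. Without spots that have fewer than 6 listed neighbours the mean over sections was 33.0%. The same area label took up 60.7, 61.6 and 65.9% of the variance of the ribosomal protein percentage, the deposited share of UMIs on genes for ribosomal proteins, and 0.579, 2.02 and 1.53% of that of the red blood cell percentage. The red blood cell percentage rests on few UMIs, a median of 2 (CON), 9 (RES) and 37 (SUS) per spot. For the mitochondrial percentage over all spots together, the area label alone took up 14.8%, the section alone 3.98% and both with their combinations 22.6%.

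Against the CON section, the percentage was lower in most areas of both other sections, and cortical areas were among the lowest ratios in both. The ratio of medians was below 1 in 14 of 17 areas in RES and in 16 of 17 in SUS. Its interval lay wholly below 1 in 9 areas in RES (52.9% of the 17) and in 13 in SUS (76.5%), and it lay wholly above 1 in 1 area in each (5.88%), the hypothalamus. Both sets of ratios share the CON section and are given side by side, and their intervals treat spots as independent. In PTL the median was 10.5% (10.3 to 10.9%, 138 spots) in CON, 8.80% (8.55 to 9.12%, 148 spots) in RES and 5.73% (5.52 to 6.12%, 151 spots) in SUS, ratios of 0.835 and 0.544. The next lowest ratios in SUS were those of ENTl (0.597), SSp (0.616), AUD (0.651), CA1 (0.679), OLF (0.689) and AMY (0.705). The matching ratios in RES were 0.779, 0.809, 0.774, 0.791, 0.915 and 0.963, and all but that of AMY had an interval below 1. With means and with pooled UMIs the ratio of OLF in RES was 1.13 and 1.19. Among spots of 10000 to 15000 UMIs it was 0.622.

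In PTL and SSp the lower percentage of SUS came with far fewer mitochondrial UMIs at a nearly equal number of other UMIs. Median mitochondrial UMIs per spot in PTL were 2229 in CON, 1584 in RES and 1041 in SUS, while deposited UMIs were 17568, 15497.5 and 15914. In SSp they were 2302, 1700 and 1340 beside 16828, 15409 and 16626 deposited UMIs. Over all areas, the ratio of mitochondrial UMIs lay below the ratio of deposited UMIs in 11 of 17 areas in RES and in 16 of 17 in SUS. After each section was divided by its own median the SUS section was below the CON section in 9 areas instead of 16, with DG (1.20), FB (1.14), LV (1.10), TH (1.08), RSP (1.06), D3V (1.04) and TEP (1.03) then above it. The RES section was then below it in 10 areas instead of 14. With means instead of medians the ratios of SUS were above 1 in ENTl (1.07), OLF (1.05) and TEP (1.06).

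The hypothalamus was the exception. Its median was 9.32% in CON (9.03 to 9.60%, 300 spots), 10.5% in RES (10.3 to 10.9%, 292 spots) and 11.1% in SUS (10.7 to 11.5%, 294 spots), which gives ratios of 1.13 (1.08 to 1.21) and 1.19 (1.12 to 1.27). In the SUS section it was the only area with a higher median than in CON, and it also held more mitochondrial UMIs, 1935 against 1676 per spot. More mitochondrial UMIs in SUS than in CON were also found in FB (491 against 367) and D3V (1569 against 1378). In the RES section the mitochondrial UMIs of HY were fewer, 1381, beside 11022 deposited UMIs against 15928.5 in CON. When spots were limited to 10000 to 15000 UMIs, the ratio was 0.993 in RES and 1.15 in SUS, so the higher value of RES did not hold at matched depth. The ratio of DG in RES was 1.53, with an interval of 0.835 to 2.19 that includes 1, and it was 1.27 with means, 1.24 at 10000 to 15000 UMIs and 1.08 with pooled UMIs.

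**Figure D3:**
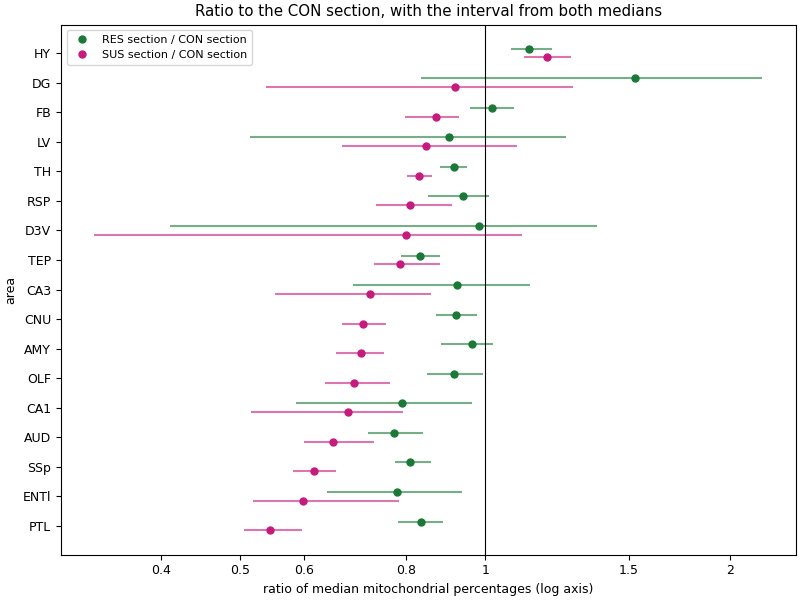
Ratio of the median mitochondrial percentage of the RES and SUS sections to that of CON in each of 17 areas on a log axis, with lines for the interval formed from the bounds of both medians and areas ordered by the ratio of SUS. Only HY has both intervals above 1 (1.13 and 1.19), PTL is lowest in SUS (0.544), and DG, LV and D3V have wide intervals that include 1.

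Within areas the percentage was mostly lower where a spot held more UMIs. Spearman's rho between the percentage and the deposited UMIs was below 0 in 38 of 44 combinations of area and section with at least 30 spots, with a median of -0.449. It ran from -0.922 in CA3 of RES (68 spots) to 0.227 in AMY of RES (155 spots). The spots share a library, and the UMIs enter the denominator of the percentage, so these values are descriptions. Another view is the slope of log2 mitochondrial UMIs on log2 deposited UMIs, which is 1 where mitochondrial UMIs keep pace with the others and 0 where their number does not move with them. Its median was 0.66, and it was below 1 in 37 of 44 combinations.

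The relation was steep in the hippocampus. In DG the slope was -0.26 (CON), -0.07 (RES) and 0.40 (SUS), so that in the first 2 sections spots rich in other UMIs held no more mitochondrial UMIs than poor ones. With the spots of an area ranked by deposited UMIs and cut into 3 equal groups, the percentage in DG was 17.9% in the group with the fewest UMIs of the CON section and 6.55% in the group with the most. In RES these groups held 19.6 and 5.07%, and in SUS 9.73 and 5.48%. In CA1 the same values were 14.6 and 6.49%, 11.4 and 4.97%, and 8.11 and 5.65%, and in CA3 15.5 and 6.52%, 15.2 and 6.04%, and 10.2 and 5.55%. In all 3 hippocampal areas the UMI-rich groups of the 3 sections lay between 4.97 and 6.55% and the UMI-poor groups ranged from 8.11 to 19.6%. The sections thus differed more in the UMI-poor than in the UMI-rich spots of the hippocampus. The curved bands of low percentage in the maps lie in these areas, where the packed cell bodies of pyramidal and granule cells alternate with layers of dendrites and axons, but no cell layer was annotated in the deposited table.

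In the fiber tracts the percentage varied little with depth in CON and RES. In FB the number of deposited UMIs varied by a factor of 11.4 between the 10th and 90th percentile of spots in CON, and the groups with the fewest and the most UMIs held 9.03 and 9.18% there, 9.41 and 8.82% in RES and 8.11 and 7.22% in SUS. The slopes in FB were 1.06, 0.96 and 0.83, and in AMY 0.97, 1.10 and 1.10. Deposited UMIs spanned a narrower range in AMY (2.05- to 2.41-fold) and in FB of SUS (2.49-fold), and in AMY of RES the percentage was 6.95% in the UMI-poor and 8.36% in the UMI-rich group. TH lay between, with slopes of 0.80, 0.68 and 0.65 and 13.6 and 11.2% in its UMI-poor and UMI-rich groups of CON. OLF resembled DG, with slopes of 0.17, 0.49 and -0.01 and, in SUS, 18.7% in its UMI-poor group against 4.66% in its UMI-rich group. ENTl of SUS (30 spots) had a slope of -0.24, and its UMI-poor group held 4.02 times the percentage of its UMI-rich group (4.47%), the highest such ratio of the 44 combinations. OLF of SUS followed, then DG of RES (3.86).

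**Figure D4:**
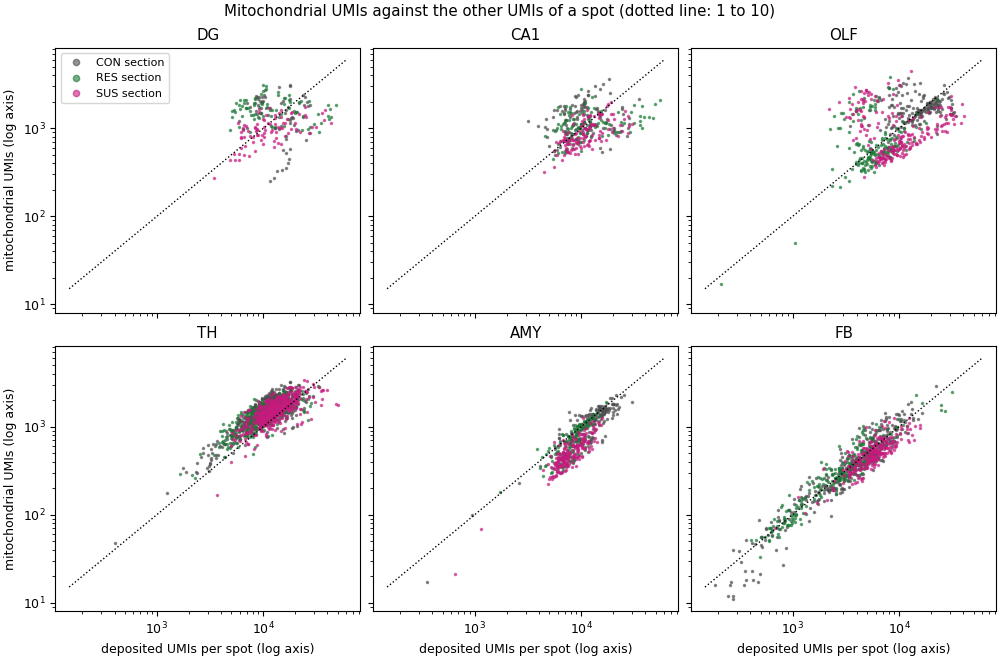
Mitochondrial UMIs against deposited UMIs of each spot (log axes) in DG, CA1, OLF, TH, AMY and FB, colored by section, with a dotted line where mitochondrial UMIs are 1 per 10 deposited UMIs. In AMY and FB the spots run roughly parallel to the line (slopes 0.83 to 1.10), those of AMY in SUS below it, in DG and CA1 of CON and RES they form flat clouds (slopes -0.26 to 0.24), with a rise in SUS (0.40 and 0.56), and OLF has a separate group with many mitochondrial and few other UMIs.

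The separate group in OLF lay mostly at the surface of the brain. Spots next to a place without tissue, here called outermost spots, numbered 120 in CON, 137 in RES and 153 in SUS. They include spots beside openings inside the tissue, such as those of LV and FB, of which 5 and 2 in CON and 9 and 11 in RES, with medians of 6.93 to 8.39%, but none in SUS were outermost, so the sets differ between sections. Their median percentage was 16.0% (13.9 to 17.1%), 17.4% (15.3 to 19.1%) and 17.1% (15.7 to 18.9%). Spots at least 3 grid steps inside stood at 10.4% (10.2 to 10.5%), 9.54% (9.40 to 9.66%) and 7.77% (7.60 to 7.91%), which makes the outermost spots 1.54, 1.83 and 2.20 times as high. The intervals of the outermost spots overlapped between the 3 sections, while those of the inner spots did not. Outermost spots also held fewer deposited UMIs than inner ones (10391.5 against 12967, 6290 against 10402 and 5252 against 11580), and the part of depth in the rim was not tested. The rim was 1 to 2 spots deep. At the second step the medians were 11.2, 9.72 and 8.96%, and at the third 10.1, 8.73 and 6.14%.

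The surface of the olfactory areas, part of the ventral edge of the brain, had the highest values of all. Outermost spots of OLF held 19.1% (16.0 to 22.9%, 26 spots) in CON, 26.4% (24.1 to 28.7%, 32 spots) in RES and 27.8% (26.0 to 30.2%, 41 spots) in SUS, against 8.36, 7.27 and 5.41% in spots at least 3 steps inside. The excess was 2.29-, 3.63- and 5.14-fold. It was present in the number of mitochondrial UMIs too, with 2133, 1725.5 and 2002 per outermost spot and 1623.5, 518.5 and 635.5 per inner spot, although outermost spots had fewer deposited UMIs (8636 against 18410.5, 4600.5 against 6046 and 4389 against 10704). The highest single spot of each section was an outermost spot of OLF, with 2987 of 10905, 2454 of 6370 and 2957 of 7034 UMIs on mitochondrial genes.

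The rim differed between areas. Of 7 areas with at least 5 outermost spots in every section, 4 had a ratio of outermost to inner spots with its interval above 1 in all 3 sections, namely OLF, PTL, AUD and SSp. In PTL the ratios were 1.73, 2.34 and 3.23, and in SSp 1.45, 1.98 and 1.88. In the isocortex of CON the outermost spots of AUD, PTL, RSP and SSp held more mitochondrial UMIs than inner spots. In RES they held fewer in PTL (1522 against 1590), RSP and SSp (1595 against 1715), but more in AUD. In SUS they held fewer in AUD, RSP and SSp (939 against 1459.5), but more in PTL (1459 against 1078) and TEP. Deposited UMIs of outermost spots in SUS were fewer in both PTL (5875 against 18033) and SSp (5551 against 18120.5). The interval lay above 1 in CNU in 2 of 3 sections and in RSP in 1 of 3. FB of RES, with 11 outermost spots, was lower there, 7.29 against 9.10% inside (ratio 0.801, 0.621 to 0.937). In HY it lay above 1 in no section, with 8.06, 9.79 and 10.9% in its outermost spots (18 to 22 spots) and 9.38, 10.6 and 11.1% inside. TEP had outermost spots in SUS only, 12 spots with 16.8% against 4.99% inside. The tissue of the CON and RES sections ran to the last columns of the capture area, which hold 41 and 33 of their spots and none of SUS, and places beyond it were not counted as free of tissue. Without spots with fewer than 6 listed neighbours the ratio of SUS to CON in TEP was 0.755 instead of 0.786.

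**Figure D5:**
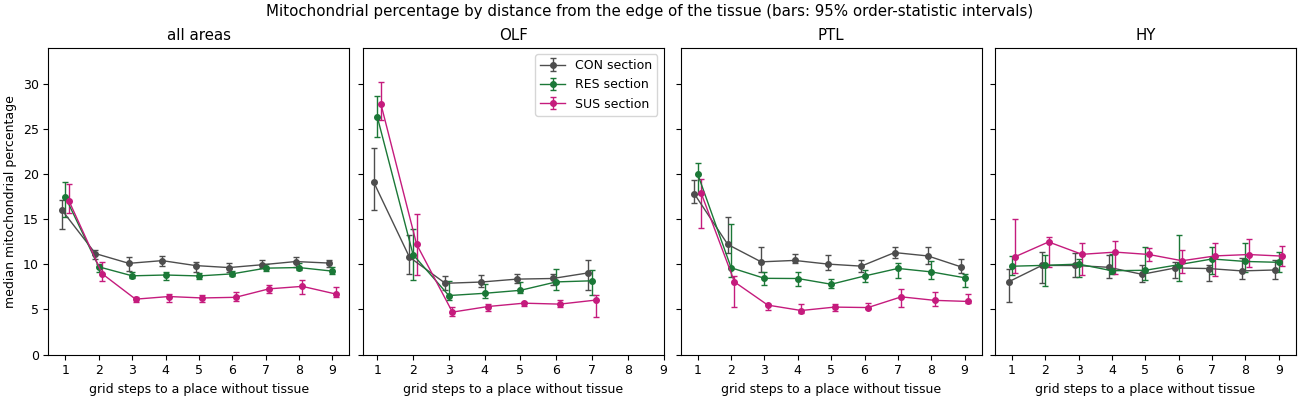
Median mitochondrial percentage against the number of grid steps to the nearest place without tissue (1 is the outermost spot) for all areas, OLF, PTL and HY in the CON, RES and SUS sections, with 95% order-statistic intervals as bars and steps with fewer than 5 spots left out. The outermost spots of OLF reach 19.1, 26.4 and 27.8% and fall toward the inner level within 2 to 3 steps, whereas HY stays level.

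The spots with the highest percentages were concentrated at the surface. Among the highest 5% of each section (145, 142 and 142 spots), outermost spots made up 35.2% in CON, 49.3% in RES and 64.8% in SUS, compared with 4.17, 4.84 and 5.39% of all spots. OLF alone held 15.9, 27.5 and 37.3% of them. Hippocampal areas stood at both ends in CON and RES, whereas the highest 5% of SUS held 0 spots of CA1 and 1 of CA3. In DG of CON, 17 of 69 spots were among the highest 5% of the section and 17 others among the lowest 5%, the former with a median of 9362 and the latter of 17108 deposited UMIs. In the RES section the highest 5% held 26 spots of DG and the lowest 15, whereas in SUS the highest 5% held 1 and the lowest 10. Shares of spots above 15% in DG were 29.0% (exact 95% interval 18.7 to 41.2%), 38.1% (27.7 to 49.3%) and 2.33% (0.283 to 8.15%). Over all areas the shares were 11.2, 8.42 and 5.53%, so the section as a whole was lower in SUS too, but by less than DG. From CON to SUS the share also went from 27.8 to 0% in CA1, from 20.2 to 1.56% in CA3 and from 19.4 to 2.44% in TH. It was higher in SUS than in CON in OLF (24.5 against 14.5%), AUD, ENTl, HY and TEP.

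Adjacent spots had similar values. The correlation of a spot's percentage with the mean of its grid neighbours was 0.807 in CON, 0.824 in RES and 0.848 in SUS, close to that of log2 UMIs (0.855, 0.851 and 0.799), below that of the ribosomal protein percentage (0.901, 0.902 and 0.908) and far above that of the red blood cell percentage (0.0493, 0.0932 and 0.265). After the median of each area was subtracted it was still 0.735, 0.790 and 0.830, while that of the ribosomal protein percentage was 0.671, 0.649 and 0.640. Most of the likeness of neighbours in mitochondrial percentage therefore lay within areas. Single pairs of adjacent spots in the same area differed by a median of 1.36 (CON), 1.20 (RES) and 1.08 (SUS) percentage points, and pairs across a border between areas by 1.90, 1.57 and 1.21. These differences are several times the counting SD of a spot. The low likeness of the red blood cell percentage stands beside few such UMIs, a median of 2 (CON), 9 (RES) and 37 (SUS) per spot. The part of counting error in it was not tested.

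The likeness faded within a few spots. For single pairs of spots the correlation was 0.61, 0.62 and 0.67 at 1 grid step and 0.14, 0.12 and 0.13 at 10 steps, and after subtraction of area medians it went from 0.49, 0.54 and 0.61 at 1 step to 0.10, 0.13 and 0.19 at 3 steps. Among areas, neighbours were most alike within CA1 in CON (0.88), OLF in RES (0.87) and TEP in SUS (0.92), and those within RSP were least alike in all sections at 0.59, 0.32 and 0.45. These correlations are over spots that share a section and are given as descriptions.

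The other deposited percentages moved with the mitochondrial one unevenly. Within areas, rho with the ribosomal protein percentage had a median of -0.0910 over 14 areas in CON, 0.120 over 15 areas in RES and 0.441 over 15 areas in SUS. It was above 0 in CA1 in all sections (0.63, 0.82 and 0.70). The rank correlation with the red blood cell percentage had medians of 0.142, 0.215 and 0.243 and was above 0 in 12 of 14, 13 of 15 and 14 of 15 areas. In the hippocampus it was 0.58, 0.46 and 0.54 in DG and 0.41, 0.59 and 0.43 in CA3. All 3 percentages share 1 denominator, and its part in these relations was not tested. Red blood cell UMIs were few (medians of 2, 9 and 37 per spot in CON, RES and SUS), and the part of counting error was not tested either.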

How the data were processed

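RNA of 3 sections, 1 CON, 1 RES and 1 SUS, was captured on Visium capture areas with 4992 spots each. The authors built the tables with ST Pipeline and Seurat on mm10, leaving out rarely seen genes and spots below a UMI minimum, and the submitters' processing notes also name bcl2fastq, cutadapt and Space Ranger 1.0.0. The deposited count is the number of UMIs per spot, not normalized, and the deposited percent values (mitochondrial, ribosomal protein, red blood cell) were calculated by the authors. Which genes they count is not given in the sources used here. Places on the slide came from the position lists.

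The total behind the percentages was taken as the smallest whole number, at least the deposited count plus the mitochondrial and red blood cell UMIs it implies, at which all 3 percentages are whole UMIs within 1e-07. It was found in 8549 of 8549 spots, whereas 3 spots were whole with the deposited count. In 162 spots another total within 1.5 times would also do. The median UMIs outside the deposited count that are neither mitochondrial nor of red blood cells were 120 per spot. Sums of deposited UMIs were 37536349 (CON), 31196847 (RES) and 34979160 (SUS), and sums of mitochondrial UMIs 4405243, 3432207 and 3336288.

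CTXsp is called AMY and Hip HIP, following the study. Medians have 95% order-statistic intervals, ratios the interval from the bounds of both medians, and shares exact Clopper-Pearson intervals, all of which cover the spread or counting error within a section. All of them treat spots as independent, although adjacent spots were alike, so they are likely too narrow. No condition has a second section, so replicate error is unknown and no test was made. Rank correlations over areas (n = 17) and over spots are descriptions. Grid neighbours are the 6 nearest places. Depth relations used areas with at least 30 spots, and outermost values areas with at least 5 outermost spots. All 17 areas are given, and those with the 3 highest and 3 lowest medians of a section in full. The areas and comparisons were chosen with earlier results of these data known. Alternatives were minimum UMIs of 1000, no edge spots (fewer than 6 listed neighbours), the 8 regions the study kept, 10000 to 15000 UMIs, means, division by the section median, log2 values, 18 neighbours, a fit on log2 UMIs, and leaving out each section. Pooled UMIs, the total that includes mitochondrial UMIs and leaving out outermost spots were added after seeing the data. The steps were tested on simulated data, the interval of the median on independent values only. Computation used Python 3.11.15 (pandas 2.3.3, numpy 2.4.6 and scipy 1.17.1), and plots matplotlib 3.10.9.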

Additional observations from a re-analysis of the deposited data

Results flagged for a closer look

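The hypothalamus was higher in both the RES and the SUS section than in the CON section, with ratios of medians of 1.13 and 1.19, while most other areas were lower in both, as the section as a whole was. It is listed because every interval of its ratios lay on the opposite side of 1 from the whole sections. Among spots of 10000 to 15000 UMIs the ratios were 0.993 (RES) and 1.15 (SUS), so that of RES changed direction. The difference was not tested, since each condition has 1 section.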

How the results depend on the processing

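No paired analysis was possible because each condition has 1 section and the labels give no replicate numbers. Without edge spots the SUS section's median was 7.77%, the share of variance between areas 33.0%, rho with UMIs within areas -0.336 (mean of the sections, -0.437 with all spots) and the likeness of adjacent spots 0.804 overall and 0.674 within areas (0.826 and 0.785 with all spots). With spots of 10000 to 15000 UMIs the medians were 11.2 (CON), 10.2 (RES) and 8.88% (SUS), the ratio of highest to lowest area 2.38 (2.14 with all spots), and HY of the RES section turned to 0.993 times CON. With means the sections gave 10.8, 10.3 and 8.96%, and the ratios to CON turned above 1 in OLF of the RES section (1.13) and in ENTl (1.07), OLF (1.05) and TEP (1.06) of the SUS section. With UMIs pooled over spots the SUS section gave 8.55% and OLF of the RES section 1.19 times CON. After division by the section median, areas below 1 numbered 9 in the SUS section, where DG (1.20), FB (1.14), LV (1.10), TH (1.08), RSP (1.06), D3V (1.04) and TEP (1.03) turned above 1, and 10 in the RES section (14 before). On log2 values the areas took up 25.1% of the variance. With the total that includes mitochondrial UMIs rho was -0.368. Over the 18 nearest places the likeness was 0.756, or 0.704 within areas. Within areas it was 0.669 after a fit on log2 UMIs and 0.684 without outermost spots (0.805 without subtraction). With each section left out in turn, the rank agreement of areas (0.697) ranged from 0.571 to 0.841, the highest without the CON section. Of 196 recomputed area ratios, 19 lay on the other side of 1, and for 10 of these the interval of the reported ratio had not included 1. The no-edge and matched-depth settings left 15 areas. D3V, LV and ENTl hold few spots. The cause of these shifts was not tested.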
